A study of Mus musculus with 2 samples.

Results

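The genes described here lie on mouse chromosome 14 between 50 and 80 Mb. They were chosen by position and level: each has its GENCODE gene start in that interval of GRCm38 and a raw count of at least 25 in either library. The interval held 812 rows of the table, and 251 of them reached 25 counts and are the members. Over the whole table of 46983 rows, 15916 reached that count. The 2 libraries came from 46C cells, a line of mouse embryonic stem cells with a reporter at the Sox1 locus, kept on feeders with serum and the cytokine LIF. One library was made after stable infection with a pLKO.1-TRC short hairpin against the long noncoding RNA linc1557, and the other with a control hairpin. Infected cells of both groups had been selected with puromycin and picked as clones, and how many clones entered each library is not given in the sources used here. No row of the table was matched to linc1557, so the level of the target was not analysed here. There was 1 library per group, so no spread between cultures was measured and no test between groups was made. The interval was singled out because its genes had been seen to be lower in these same libraries, so every count and median below is a description of that choice.

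Both libraries carried the transcripts that define stem cells of this kind. Knockdown counts stand first in each pair below. Pou5f1 had 8474 against 7269 counts, Sox2 5841 against 5430, Nanog 6214 against 4855, and Zfp42 9856 against 6708. Feeder fibroblast transcripts were present in both libraries too. The 29 fibroblast markers listed summed to 2268 CPM in the knockdown against 4212 CPM in the control library, and none was at 0 in either. CPM is the count scaled to the size of the library after TMM scaling.

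A stretch of chromosome of this size holds genes with little in common but their address. From its start towards the end of the chromosome it carries ribonuclease and base-excision repair genes, the T cell receptor alpha locus, a dense stretch of housekeeping genes with the cardiac myosins and the proteasome activator genes, the granzyme cluster, then Gata4, the neurofilament genes, Loxl2, Fgf17, the retinoblastoma gene Rb1 and the abundant translationally controlled gene Tpt1. Stem cells transcribe the housekeeping part strongly and leave the T cell receptor segments, olfactory receptors and granzymes mostly silent. Of the 561 rows that were not members, 374 had no count in either library and 187 had at least 1 count without reaching 25.

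The promoters of 4 members are given as examples of the sequences at which these genes start. Apex1 is an abundant gene called lower, Slc7a8 and Sall2 are among the lowest genes, and Phf11d is 1 of the few on the higher side. Each runs from 250 bases before to 50 after a RefSeq transcript start (GRCm38.p6) and is printed 5′ to 3′ on the strand of its gene. Capitals mark GGGCGG or TATAAA on either strand.
Apex1: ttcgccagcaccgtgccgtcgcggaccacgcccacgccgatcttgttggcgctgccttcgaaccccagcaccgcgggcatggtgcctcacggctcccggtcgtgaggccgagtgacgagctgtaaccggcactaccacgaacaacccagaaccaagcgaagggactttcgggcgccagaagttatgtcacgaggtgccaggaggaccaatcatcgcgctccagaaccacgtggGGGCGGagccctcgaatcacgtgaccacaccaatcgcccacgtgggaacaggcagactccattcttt
Slc7a8: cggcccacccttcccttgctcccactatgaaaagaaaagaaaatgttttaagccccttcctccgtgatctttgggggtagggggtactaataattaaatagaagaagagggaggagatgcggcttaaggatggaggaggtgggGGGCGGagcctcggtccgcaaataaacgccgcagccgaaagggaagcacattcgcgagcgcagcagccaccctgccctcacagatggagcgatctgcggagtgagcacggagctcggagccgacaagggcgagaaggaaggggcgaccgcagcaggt
Sall2: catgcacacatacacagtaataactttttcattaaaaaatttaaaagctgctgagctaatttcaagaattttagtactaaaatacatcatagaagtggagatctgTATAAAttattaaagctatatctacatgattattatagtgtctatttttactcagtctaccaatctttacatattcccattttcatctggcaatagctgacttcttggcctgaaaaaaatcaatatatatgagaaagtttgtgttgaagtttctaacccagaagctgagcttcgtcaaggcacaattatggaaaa
Phf11d: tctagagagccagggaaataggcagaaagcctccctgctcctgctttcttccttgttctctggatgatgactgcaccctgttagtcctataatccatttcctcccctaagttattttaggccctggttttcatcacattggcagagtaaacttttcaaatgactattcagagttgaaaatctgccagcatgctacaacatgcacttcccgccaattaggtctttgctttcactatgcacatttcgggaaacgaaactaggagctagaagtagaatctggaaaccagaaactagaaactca
The Apex1 sequence lies at chr14:50924699-50924998 on the plus strand, and the others are on the minus strand at chr14:54781837-54782136 (Slc7a8), chr14:52328621-52328920 (Sall2) and chr14:59365441-59365740 (Phf11d). They hold 31 (Apex1), 20 (Slc7a8), 1 (Sall2) and 3 (Phf11d) CG dinucleotides. GGGCGG was found once in Apex1 and once in Slc7a8, and TATAAA once in Sall2. Over the 32851 promoters of the RefSeq table, 35.7% held GGGCGG and 13.6% held TATAAA on either strand. RefSeq promoters matched 143 of the 251 members (57.0%), so a comparison of promoter composition over the members is void and none is given. No promoter was matched for Piwil2.

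Genes of the interval were lower in the knockdown library across unrelated functions, with few exceptions. Members had a median of 239 knockdown and 403 control counts, although the knockdown library was the deeper of the pair (26693282 against 23146210 counts). After TMM scaling the median log2 ratio of knockdown over control was -0.73, or 1.66-fold lower, with quartiles of -1.05 and -0.41. Over all 15916 genes that reached 25 counts the median was 0.02, with quartiles of -0.35 and 0.33. The ratio lay under 1 for 231 of 251 members. Brackets after a ratio give its exact Clopper-Pearson 95% interval, which covers counting error only and takes every read as its own molecule. That interval lay wholly below 1 for 207 members and wholly above 1 for 10, where over all genes 31.0% and 32.8% did so. Calls needed a 2-fold or larger difference and an interval without 1. By that rule 75 members were lower (29.9%) and 3 were higher (1.20%), against 9.44% and 4.81% of all genes. At 1.5-fold 152 members were lower (16.3% of all genes), and at 4-fold 13 were lower and 1 was higher (2.44% and 0.980% of all genes). In bulk RNA, fewer cells of a type and less RNA per cell cannot be told apart.

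Summed over the members, the interval took 0.766% of the knockdown counts (Wilson 95% interval 0.763 to 0.770) and 1.20% of the control counts (1.20 to 1.21). A large part of both sums was 1 short transcript. Rpph1, the RNA component of ribonuclease P, had 69690 and 79659 counts and a log2 ratio of -0.28 (-0.29 to -0.27). Without it the shares were 0.505% and 0.860%, a log2 ratio of the sums of -0.65.

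**Figure D1:**
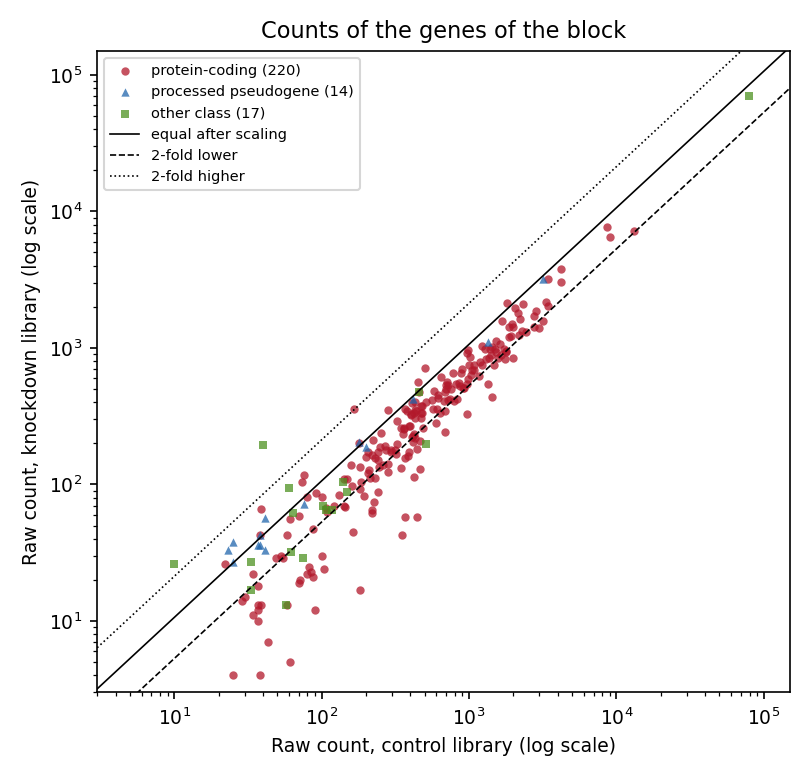
Raw counts of the 251 members in the control library (x axis, log scale) and the knockdown library (y axis, log scale), 1 point a gene, by gene class. The lines mark equal levels after TMM scaling and 2-fold differences; 139 of 220 coding genes lie between the equal and the 2-fold lower line, many of those with few counts lie below both, and processed pseudogenes lie near the equal line.

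The members differed among themselves about as much as genes do elsewhere. The distance between their quartiles was 0.64 on the log2 scale, compared with 0.66 for genes of all other chromosomes and 0.78 for the rest of chromosome 14. Taken from the members' own median, 26 genes lay at least 2-fold below it and 11 at least 2-fold above it with an interval that excluded it, which is 10.4% and 4.38%. The same count around the median of all genes gave 9.85% below and 4.57% above. The plot of the distributions shows this as a curve of similar width moved to the left.

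**Figure D2:**
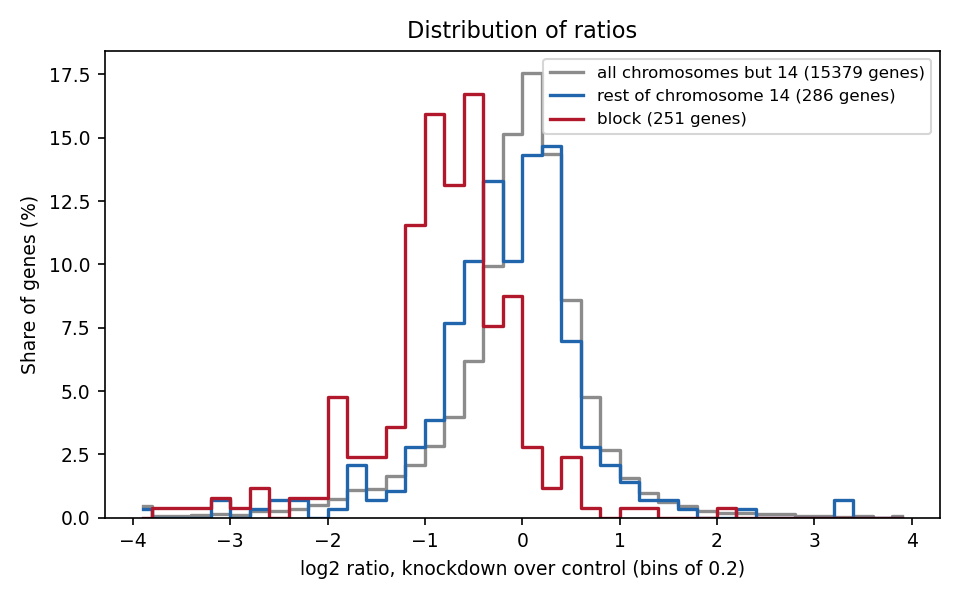
Share of genes (y axis, %) by log2 ratio of knockdown over control (x axis, bins of 0.2, values beyond the axis put in the end bins) for the members, the rest of chromosome 14 and all other chromosomes. The median lies at -0.73 for the members, -0.11 for the rest of chromosome 14 and 0.03 for the other chromosomes.

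The fitted low segment began before the interval and had the last member as its last gene. Chromosome 14 was divided into 3 segments with a median each, at the break points that gave the smallest sum of absolute deviations over its 537 genes with at least 25 counts. The middle segment held 274 genes, among them all 251 members, and ran from Cdkn3 (start 46760541) to Sugt1 (start 79587691). Its median log2 ratio was -0.72, against -0.09 for the 196 genes before it and 0.04 for the 67 after it.

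At the beginning, the last gene outside was Bmp4, a ligand of the TGF-beta family, with 544 against 443 counts and a log2 ratio of 0.21 (0.03 to 0.39). Only 0.377 Mb further on, the phosphatase gene Cdkn3 had 62 against 99 counts and a ratio of -0.76. Cnih1 followed with 369 against 786 (-1.18), Gmfb with 718 against 1630 (-1.27), Cgrrf1 with 52 against 120 (-1.29) and Samd4 with 142 against 420 (-1.65). The step was not clean on either side. Before Bmp4, the integrin activator gene Fermt2 stood at -0.50 (-0.60 to -0.40) and Styx at -0.48. Behind Samd4, Gch1 was at 0.42 (-0.14 to 0.98) from 68 against 48 counts, Wdhd1 at -0.27 and Socs4 at -0.19. In bins of 2 Mb the median was -0.22 from 44 to 46 Mb (10 genes), -0.77 from 46 to 48 Mb (16 genes), -0.42 from 48 to 50 Mb (9 genes) and -0.79 in the first bin of the interval (17 genes). For coding genes alone the medians of these bins were -0.32 (7 genes), -0.77 (15), -0.42 (7) and -0.89 (14).

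At the far end, the last members were Wbp4, a splicing factor gene, with 453 against 620 counts (-0.54), the ETS factor gene Elf1 with 180 against 296 (-0.80) and Sugt1, which assists kinetochore assembly, with 1423 against 1987 (-0.57, -0.67 to -0.47). The next gene with 25 counts was Diaph3, a formin gene at start 86655367, with 1661 against 983 counts and a log2 ratio of 0.67 (0.55 to 0.78). Between Sugt1 and Diaph3 lie 7.07 Mb in which 13 rows of the table held at most 18 counts each, 10 of them none at all. Where in that gap the shift ended could not be seen in these data. Behind Diaph3, Tdrd3 stood at -0.26, Rps3a2 at 0.04 and Pcdh9 at -1.03 (39 against 75 counts). With protein-coding genes alone the fitted end moved to Pcdh9 (93013410).

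**Figure D3:**
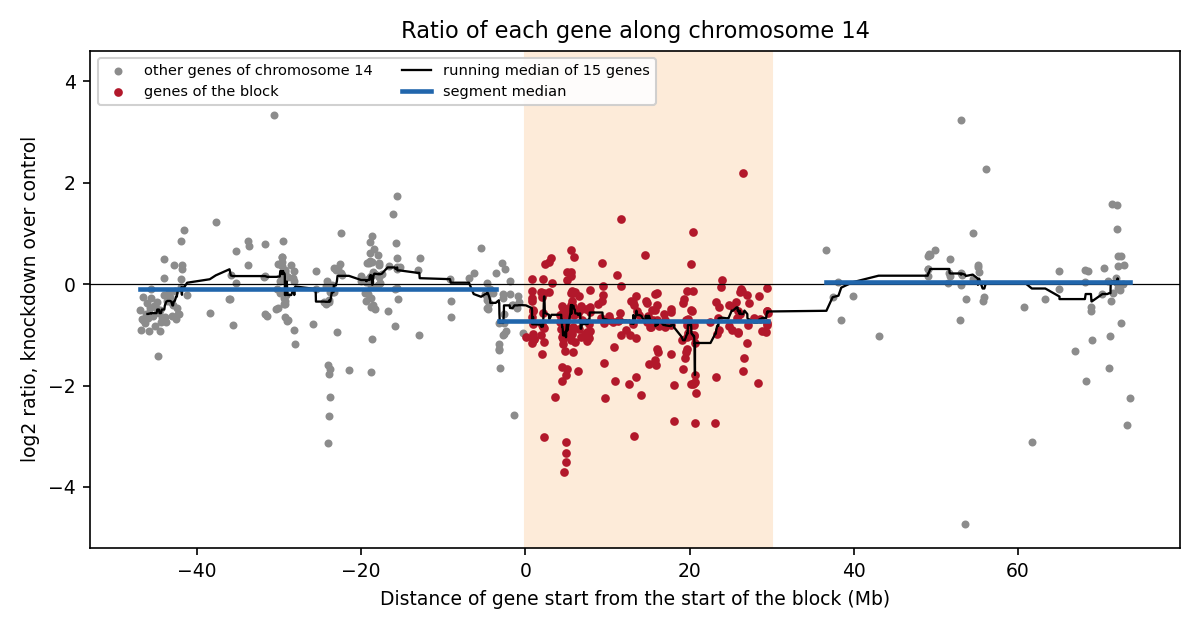
Log2 ratio of knockdown over control (y axis) of each gene of chromosome 14 with at least 25 counts, by the distance of its start from the start of the interval (x axis, Mb); shading marks the interval. The running median of 15 genes and the 3 segment medians (-0.09, -0.72 and 0.04) drop shortly before the shaded interval and return after the gap that follows it.

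Inside the interval the shift was present in every bin of 5 Mb. The median log2 ratio was -0.82 from 50 to 55 Mb (58 genes), -0.56 from 55 to 60 Mb (61), -0.70 from 60 to 65 Mb (32), -0.82 from 65 to 70 Mb (38), -0.94 from 70 to 75 Mb (32) and -0.63 from 75 to 80 Mb (30). The lowest bins of 2 Mb lay next to each other, from 68 to 70 Mb (-1.04, 15 genes) and from 70 to 72 Mb (-1.02, 20 genes). Of their 35 genes 20 were called lower, against 29.9% of all members and 9.44% of all genes. A high share follows from picking the lowest bins by the same ratios. The highest bin of 2 Mb was 52 to 54 Mb (-0.25, 15 genes), where 5 processed pseudogenes lie. Its 9 coding genes had a median of -0.80. A running median of 15 genes stayed under -0.4 at 247 of 251 members, with its lowest value of -1.79 at Fgf17 and its highest of -0.25 at Rab2b.

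A stretch from Loxl2 to Xpo7, chosen after the values were seen, surrounds the lowest running median, at Fgf17. Loxl2, which crosslinks collagen, had 839 against 1988 counts (2.52-fold lower, 2.32 to 2.73). Xpo7, a nuclear export receptor gene, had 1407 against 2962 (2.24-fold lower, 2.10 to 2.38), Dmtn, an actin-bundling protein of the membrane skeleton, 438 against 1428 (3.46-fold lower, 3.11 to 3.86), and Fgf17, a fibroblast growth factor, 130 against 468 (3.82-fold lower, 3.14 to 4.68). Bmp1, the procollagen C-proteinase, stood at the threshold with 335 against 632 counts (2.00-fold lower, 1.75 to 2.30), and it was no longer called with DESeq2 size factors. Piwil2 lies within this stretch and was called in the other direction.

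Genes for chromatin and DNA repair were lower without reaching 2-fold in most cases. Beside each list count below stands its share, to be read against the 9.44% lower and 4.81% higher over all genes. Of 20 members on that list, 4 were called lower (20%) and none higher, and the median was -0.59. Apex1, the endonuclease of base-excision repair, had 1564 against 3161 counts, 2.15-fold lower (2.02 to 2.28). The arginine methyltransferase gene Prmt5 had 1414 against 2750 counts, a log2 ratio of -1.05 (-1.14 to -0.95). Supt16, the large subunit of the histone chaperone FACT, had 6526 against 9103 (-0.57), the chromatin remodeller gene Chd8 2026 against 3409 (-0.84) and Zmym2 1870 against 2868 (-0.70). Npm2 and Hr were the other called members, with 4 against 25 and 45 against 164 counts. On this list, only Npm2 was admitted through the control library alone.

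Genes of RNA processing and transcription had intervals below 1 for all 21 listed members. By size, 5 of 21 were called lower (23.8%) and none higher, and the median was -0.63. Hnrnpc, which binds nascent transcripts, was the most abundant and stood close to equal with 7714 against 8606 counts (-0.25, -0.29 to -0.20). Acin1, of the exon junction complex, had 3016 against 4189 (-0.56), the m6A cofactor gene Zc3h13 1503 against 1945 (-0.46) and the elongator acetyltransferase gene Elp3 1210 against 1857 (-0.71). The methyltransferase gene Mettl3 had 418 against 717 counts (-0.87). The called members were Homez, R3hcc1, Pspc1, Polr3d and Ints6, at -1.01 to -1.32.

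Cell cycle genes had intervals below 1 for 16 of 16 members, with 4 called lower (25%), none higher, at a median of -0.58. Esco2, which acetylates cohesin, had 3209 against 3441 counts (-0.19), and Cdca2, a targeting subunit of protein phosphatase on mitotic chromatin, 1621 against 2224 (-0.54). Rb1, the retinoblastoma tumour suppressor gene, had 354 against 427 counts and a ratio of -0.36 (-0.57 to -0.15), so it lay above the members' median. The called genes were the mitotic kinase gene Pbk (-1.50), Ajuba (-1.18), the Hippo kinase gene Lats2 (-1.07) and Reep4 (-1.03).

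Genes of the proteasome, ubiquitin and related protein handling had 3 of 16 called lower (18.8%), none higher, at a median of -0.75. Tpt1 had the most counts of any coding member in the control library, and in the knockdown library only Hnrnpc exceeded it. Its 7188 against 13121 counts were 1.94-fold lower (1.88 to 2.00). The proteasome core subunit gene Psmb5 had 344 against 689 counts (-1.09), the activator subunit genes Psme1 and Psme2 548 against 972 (-0.91) and 206 against 416 (-1.10), and Nedd8, a ubiquitin-like modifier, 976 against 1734 (-0.92). Scaling by total counts brought Tpt1 and Nedd8 past 2-fold.

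Metabolic and mitochondrial genes had 3 of 25 called lower, none higher, at a median of -0.70. That share of 12% is close to the 9.44% of all genes, while 21 of 25 had intervals below 1. Tdh, threonine dehydrogenase, on which mouse embryonic stem cells depend for growth, had 3805 against 4232 counts and a ratio of -0.24 (-0.30 to -0.18). Fdft1, squalene synthase, had 1792 against 2162 (-0.36), the mitophagy receptor gene Bnip3l 1340 against 2273 (-0.85) and Sucla2, a subunit of succinyl-CoA synthetase, 988 against 1280 (-0.46). Msra, a methionine sulfoxide reductase, was 4.56-fold lower (2.90 to 7.44) with 24 against 103 counts. Among the 25 members, 2 reached 25 counts through the control library alone, including Msra.

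Membrane traffic and transport had 8 of 27 called lower (29.6%), none higher, at a median of -0.81. Kpna3, an importin alpha, had 2165 against 3347 counts (-0.72), the lysosomal protease gene Ctsb 1710 against 2762 (-0.78) and the kinase anchor gene Akap11 2085 against 2308 (-0.23). Slc7a8, an amino acid transporter of the plasma membrane, had 5 against 61 counts, 13.0-fold lower (5.26 to 41.3), the lowest ratio of any member. Its relative Slc7a7 had 1250 against 2170 counts and a ratio of -0.88 (-0.98 to -0.78).

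Ligands, receptors and signalling proteins, and genes of the matrix and cytoskeleton, had the lowest list medians, which describe members partly admitted by the control library. Of 19 signalling members 11 were called lower (57.9%) and none higher, at a median of -1.11, and 3 reached 25 counts through the control library alone. Of 15 matrix and cytoskeleton members 11 were called lower (73.3%) and none higher, at a median of -1.60, and 5 were admitted that way. Where the mean of both counts had to reach 25, a setting chosen after seeing the data, 14 matrix members had a median of -1.46 and 10 were called lower, and the 19 signalling members were unaffected. Dock5, an exchange factor for RAC, had 545 against 1341 counts, 2.61-fold lower (2.36 to 2.89). Spata13, another exchange factor gene, had 686 against 1080 (-0.74), and Cab39l 476 against 460 (-0.04, -0.23 to 0.15). The receptor genes Tnfrsf19 and Lpar6 had 62 and 65 counts, each against 219, with ratios of -1.91 and -1.84. Myh6 and Myh7, the cardiac myosin heavy chains, had 17 against 182 and 4 against 38 counts, log2 ratios of -3.51 (-4.32 to -2.79) and -3.34 (-5.28 to -1.86). The neurofilament genes Nefl and Nefm had 114 against 426 and 7 against 43 counts and were 3.97-fold (3.22 to 4.93) and 6.53-fold (2.91 to 17.2) lower. Dpysl2, a microtubule regulator of growing axons, had 744 against 1230 (-0.81), and the kinesin gene Kif13b 863 against 1018 (-0.33).

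Several genes of these groups are transcribed in fibroblasts, among them Loxl2, Bmp1 and the membrane metalloproteinase gene Mmp14 (328 against 962 counts, -1.64). Over the whole table, 19 of 29 feeder fibroblast markers were called lower (65.5%, against 9.44% of all genes) and none higher (4.81% of all genes), with a median log2 ratio of -1.30 and a range of -2.66 to 0.26. None of these markers lies in the interval. The part of the feeder cells in the ratios of the matrix and signalling genes was not tested. Of 10 macrophage markers, 7 reached 25 counts, and of these 3 were called lower (42.9%) and 1 higher (14.3%). The macrophage markers summed to 36.7 and 44.2 CPM, and Marco was at 0 in the control library.

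**Figure D4:**
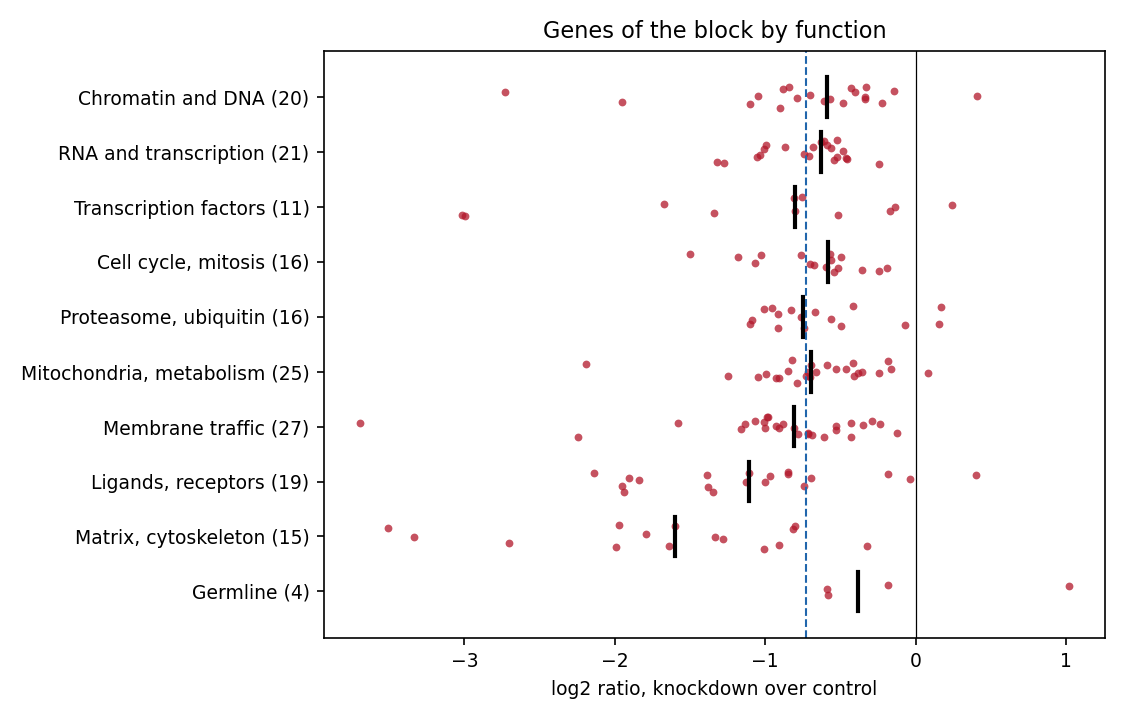
Log2 ratio of knockdown over control (x axis) of the members on each functional list (rows, number of members in brackets), 1 point a gene, with vertical jitter only. Black bars are list medians and the dashed line is the median of all members (-0.73); the matrix and cytoskeleton median of -1.60 includes 5 genes of 15 that reached 25 counts in the control library alone.

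Transcription factor genes ran from -3.01 to 0.24. Of 11 members 4 were called lower (36.4%) and none higher, at a median of -0.80. Sall2, a zinc finger factor of the spalt family, had 58 against 441 counts, 8.08-fold lower (6.13 to 10.8). Gata4, a factor of endoderm and heart, had 12 against 90, 7.97-fold lower with a nearer bound of 4.34-fold. Of the more abundant factors, Tsc22d1 at 1976 against 2041 counts (-0.13) and Tox4 at 1569 against 1663 (-0.17) lay closer to equal. Zfp219 at 629 against 1031 (-0.80) and Hmbox1 at 357 against 568 (-0.76) lay near the members' median of -0.73. Irf9, the DNA-binding subunit of the interferon-stimulated factor ISGF3, had 353 against 281 counts and a ratio of 0.24 (0.01 to 0.47).

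Of genes on no list, Efs, an adaptor for SRC family kinases, had 43 against 351 counts, 8.67-fold lower (6.31 to 12.2). Rcbtb2, which overlaps Rb1, had 58 against 365 counts, 6.69-fold lower (5.06 to 8.98). The 46 coding members on no list had a median of -0.85, with 17 called lower (37.0%) and none higher.

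The members on the higher side were few and scattered along the interval. Piwil2, a PIWI protein gene of the germline piRNA pathway, had 356 against 165 counts and was 2.03-fold higher (1.68 to 2.46), a call that scaling by total counts ended. The other germline members were not called, with Rnf17 at 989 against 1391 counts (-0.58), Pnma2 at 257 against 364 (-0.59) and the meiotic cohesin gene Rec8 at 86 against 92 (-0.18). The largest ratio of any member belonged to the lincRNA 4930444M15Rik, with 195 against 40 counts (4.59-fold higher, 3.25 to 6.62), and the lincRNA Gm26916 inside Dleu2 had 26 against 10 (1.29, 0.19 to 2.51). Gm26916 reached 25 counts in the knockdown library alone, and it was no longer called when the deeper library was thinned. These predicted genes are named after their values were seen. With smaller differences, Phf11d had 713 against 506 counts (0.41, 0.24 to 0.57), Carmil3 66 against 39 (0.67, 0.08 to 1.28), Mir124a-1hg, the host of a miR-124 copy, 95 against 60 (0.58), Sdr39u1 117 against 76 (0.54) and Zfhx2 565 against 449 (0.24, 0.06 to 0.43). Scaled by total counts, 4 members had intervals above 1 in place of 10. Phf11d has close relatives beside it, so its reads may be divided among copies, and Zfhx2 and Sdr39u1 overlap other genes that took counts.

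The members' medians differed by gene class. The 220 coding genes had a median of -0.77, with 70 called lower (31.8%) and 1 higher (0.455%). Of coding genes on other chromosomes, 9.91% were called lower and 4.29% higher. The 14 processed pseudogenes had a median of -0.08 with none called in either direction. On other chromosomes 813 genes of that class had a median of -0.03, with 2.09% called lower and 3.20% higher. The absence of calls among 14 is near those shares. The interval spanned 1 for 12 of the 14 members of this class. Rps2-ps6 was the most abundant of them with 3173 against 3196 counts (-0.10, -0.17 to -0.03), followed by Gm10132 with 1113 against 1352 (-0.37) and Gm16409 with 426 against 418 (-0.06). Processed pseudogenes are copies of the messenger RNA of genes elsewhere in the genome, and how reads matching several places were counted is not given in the sources used here. Of the 17 members of other classes, 5 were called lower (29.4%) and 2 higher (11.8%), against 9.44% and 4.81% of all genes. Rows for Mir686, Mir719 and Snora31 lie within Psmb5, Nupl1 and Tpt1 and had ratios of -0.85, -0.63 and -0.95, beside -1.09, -0.69 and -0.96 for the genes around them. In all, 109 members overlapped another gene with counts, and without known strand such reads cannot be told apart.

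The ratios were most widely spread among genes of low level. Coding genes were divided into 3 classes of mean level at 8.50 and 33.1 CPM, cut points that divide the coding genes of other chromosomes equally. In the lowest class 73 members had a median of -1.01 with quartiles of -1.82 and -0.53, and 38 were called lower. In the middle class 88 had a median of -0.69 and 22 were called, and in the highest class 59 had a median of -0.71 and 10 were called. Genes of other chromosomes in the same classes had medians of -0.16, 0.04 and 0.08, with 937 of 4254, 230 of 4253 and 97 of 4254 called lower. The difference of the medians was therefore -0.85, -0.72 and -0.78. By exon length in 3 classes the members' medians were -0.72, -0.80 and -0.76. By strand they were -0.74 for 99 genes on the plus and -0.80 for 121 on the minus strand. By gene span in 3 classes, from the shortest, the members' medians were -0.91, -0.72 and -0.74. Of these members 33 of 77, 18 of 72 and 19 of 71 were called lower. On other chromosomes 364 of 4254, 296 of 4253 and 604 of 4254 were called lower. The difference of the medians by gene span was -0.93, -0.79 and -0.70, so it was largest for the shortest genes. This trend was not tested.

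Per length, the levels of the members did not follow the number of reads alone. The genes given here are examples and not a ranking. Levels are TMM-scaled RPKM, reads per kilobase of the deposited gene length and library size. Tpt1 stood at 118 (knockdown) and 229 (control), Hnrnpc at 105 and 124, Nedd8 at 63.1 and 119, and Supt16 at 56.7 and 84.1. Apex1 stood at 42.9 and 92.2, and Tdh at 56.8 and 67.1. Rps2-ps6 stood at 186 and 199. Chd8, with more reads and a longer gene model than Nedd8, stood at 4.91 and 8.78.

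The minimum of 25 counts admitted some members through 1 library alone. Of the 251, 224 reached it in both libraries, 24 only in the control and 3 only in the knockdown library, which favours genes that differ. Of these 27, 3 had an interval that spanned 1. Just inside the minimum were Npm2 (4 against 25 counts), Emc9 (26 against 22), Gm26916 (26 against 10) and Rps19-ps1 (27 against 25). Just outside were Scara5 (10 against 24), Tmem253 (24 against 15), Gm24392 (24 against 18) and the early response gene Egr3 (4 against 23).

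Set beside other stretches of the genome, this one stood apart by its median, as the choice of it implies. Among 89 windows of 30 Mb with at least 60 genes it had the lowest median, and the next lowest was the first 20 Mb of the same chromosome at -0.36 (70 genes). Smaller low stretches lie on chromosome 16 and on chromosome 2, each from 10 to 20 Mb. The one on chromosome 16 had a median of -0.35 with 12 of 102 genes called lower (11.8%), close to the 9.44% of all genes. The one on chromosome 2 had a median of -0.39 with 25 of 63 called lower (39.7%). Its quartiles lay 2.47 apart, compared with 0.64 in the interval on chromosome 14. The differences between these stretches were not tested.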

How the data were processed

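RNA was measured in 2 libraries, 1 per group. Per the labels, Trizol and an Illumina TruSeq kit served for extraction and library construction. The authors deposited raw read counts per gene with a gene length. The submitters' processing notes name HISAT2, Trim Galore, DESeq and featureCounts, and as builds GRCm38 and mm10. Not given in the sources used here: versions, annotation release, strand setting and how overlapping or multiply mapped reads were treated. The columns were matched to the samples through their descriptions. No row was matched to linc1557, so the knockdown itself was not analysed here.

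Gene names, classes and GRCm38 positions came from GENCODE M21, which matched 46488 of 46983 identifiers. The 495 unmatched rows held 0.119% of the knockdown and 0.128% of the control counts. TMM factors (0.960 for the knockdown, 1.04 for the control library) were computed over the whole table with edgeR 4.0.16 in R 4.3.3, and the rest with scipy 1.17.1, pandas 2.3.3, numpy 2.4.6 and matplotlib 3.10.9 under Python 3.11.15. Ratios have no pseudocount, and a count of 0 would be set to 3 counts. No member had a count of 0. The rules for calls and break points were tried on simulated data with known answers. Those data held counting error alone for the calls and a uniform planted shift with sharp edges for the break points. They are no check of the calls and break points in the 2 libraries. Segments held at least 10 genes.

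The members and gene lists were chosen with earlier results of these data known. Genes named by rule (61) were the 12 lowest and up to 12 highest members by the interval bound nearer 1 (8 qualified), leaving out predicted models, the 10 with most counts, up to 4 of most counts per list, and those at the break points. Of these, 1 is not reported here. Some further genes are named beside them, chosen after their values were seen. Alternatives tried were total-count scaling, size factors from DESeq2 1.42.0, TMM without chromosome 14, count minimums of 10 and 100 and none, thinning of the deeper library, coding genes alone, a prior count of 2, fold thresholds of 1.5 and 4, and other segment fits. Leaving out processed pseudogenes or overlapping genes, and a minimum on the mean count for the lists, were added after seeing the data.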

Additional observations from a re-analysis of the deposited data

How the results depend on the processing

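The members' median stayed between -0.69 and -0.85 under every setting tried. It was -0.85 with total-count scaling, which moved the median of all genes by -0.12 as well. A change of scaling moves every log2 ratio by the same amount. The members' median relative to all genes, -0.75, therefore could not differ between scalings and is no check of them. Total-count scaling left 4 members with intervals above 1. With protein-coding members alone, 1 was called higher (0.455%, against 4.81% of all genes). At a threshold of 1.5-fold 152 members were lower (16.3% of all genes), and at 4-fold 13 were lower and 1 was higher (2.44% and 0.980% of all genes). Among the 142 members that overlap no other gene with counts, 48 were called lower and 1 higher. Their intervals lay below 1 for 116 and above 1 for 3, from a smaller number of genes. Over all genes, 9.44% were called lower and 4.81% higher, and 31.0% and 32.8% had intervals below and above 1. The low segment began at 46775567 (Cnih1) with a count minimum of 100 and ended at 93013410 (Pcdh9) with protein-coding genes alone. No paired analysis was possible because each group has 1 library. For the same reason no replicate could be left out. Depth limits the weakest members most, as in Rps19-ps1, whose log2 interval ran from -0.82 to 0.87 at 27 against 25 counts.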

Other observations

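Another stretch of chromosome 14 with low medians lay at its beginning, apart from the interval described. The 49 genes that start in the first 10 Mb had a median log2 ratio of -0.47 and a distance between quartiles of 0.46. Of them 1 was called lower (2.04%, against 9.44% of all genes). In bins of 2 Mb the median was -0.64 from 2 to 4 Mb (8 genes) and -0.57 from 4 to 6 Mb (19 genes). It was -0.42 from 6 to 8 Mb (15 genes) and 0.29 from 8 to 10 Mb (7 genes). Among 235 windows of 10 Mb with at least 20 genes, the 3 windows of the interval had the lowest medians (-0.78, -0.74 and -0.69). The window of the first 10 Mb came next. The window with the highest median was on chromosome 2 from 170 to 180 Mb, at 0.38 over 103 genes. These values are descriptions of the 2 libraries and carry no test.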
